A study of Mus musculus with 4 samples.

Results

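The genes described here code for the core subunits of the Polycomb repressive complexes: Ezh1, Ezh2, Eed and Suz12 of Polycomb repressive complex 2 (PRC2), Rnf2, Ring1, Bmi1 and Pcgf6 of Polycomb repressive complex 1 (PRC1), and the germline PRC1 protein gene Scml2. They were taken by symbol, 9 genes out of 24388 symbols in the table, and all 9 passed the filter on low values that left 9099 genes for testing. RNA came from spermatocyte suspensions of C57BL/6 mice, with 2 libraries labelled control and 2 labelled as an Np95 knockout, each with the age 21 dpc, an abbreviation that the labels do not spell out. Np95, gene symbol Uhrf1, brings the maintenance DNA methyltransferase to newly replicated DNA. The file headers call the knockout a cKO, while the Cre driver, and the control genotype beyond that word, do not appear in the sources used here. The tubules were chopped, digested and strained without a described sort, so each value is an average over the cells of the suspension, in which fewer cells of a type and less RNA per cell cannot be told apart.

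PRC2 places methyl groups on lysine 27 of histone H3. Its catalytic subunit is Ezh2 or the related Ezh1, Suz12 holds the complex together, and Eed reads the mark that the complex makes. PRC1 attaches ubiquitin to histone H2A through Rnf2 or the related Ring1, each paired with a PCGF protein, which is Bmi1 in a canonical complex and Pcgf6 in a variant complex known from germline gene silencing. Scml2 binds PRC1 in male germ cells and is known there for the silencing of somatic genes and for a role on the meiotic sex chromosomes.

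Uhrf1 measured 3.11 and 3.29 RPKM in the control libraries and 1.87 and 1.48 in the knockout libraries, where RPKM is a read number divided by the length of the gene and the depth of its library. It was lower in both knockout libraries (log2 fold change -0.65, SE 0.10, limma adjusted p = 0.0031), although RPKM covers the whole gene and the labels do not say which exons were removed. The spermatocyte marker Sycp3, of the synaptonemal complex, measured 27.0 ± 0.178 RPKM in control and 28.3 ± 2.42 in knockout libraries (SD, n = 2), so RNA of the labelled cell type was found in both groups. Library depth, read from the step between low values, was near 5820000 and 12800000 reads (or pairs) for the control and near 11110000 and 4820000 for the knockout. By the same estimate, the members rested on 195 (Ring1, knockout replicate 2) to 4848 (Scml2, knockout replicate 1) reads or read pairs per library.

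The study concerns DNA methylation at CpG sites, so the DNA upstream of the members is shown for the 2 genes with the largest rises, Suz12 and Scml2, and the 2 that fell, Pcgf6 and Ring1. Each line gives the 250 bases before the annotated start, 5′ to 3′ on the gene's strand, from RefSeq, with CpG dinucleotides in capitals.
Suz12 promoter, GRCm38.p6 chr11:79992856-79993105, plus strand: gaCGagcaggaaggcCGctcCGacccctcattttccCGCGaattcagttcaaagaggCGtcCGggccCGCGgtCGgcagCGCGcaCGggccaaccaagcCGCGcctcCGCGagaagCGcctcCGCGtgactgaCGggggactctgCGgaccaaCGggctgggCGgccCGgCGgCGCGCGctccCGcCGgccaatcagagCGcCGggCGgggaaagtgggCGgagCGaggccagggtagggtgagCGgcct
Scml2 promoter, GRCm38.p6 chrX:161162500-161162749, plus strand: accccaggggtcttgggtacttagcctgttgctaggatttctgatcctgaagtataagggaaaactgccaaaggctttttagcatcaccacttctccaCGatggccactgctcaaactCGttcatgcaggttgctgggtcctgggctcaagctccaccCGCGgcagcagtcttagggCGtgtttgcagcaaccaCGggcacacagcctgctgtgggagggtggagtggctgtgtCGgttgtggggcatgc
Pcgf6 promoter, GRCm38.p6 chr19:47050907-47051156, minus strand: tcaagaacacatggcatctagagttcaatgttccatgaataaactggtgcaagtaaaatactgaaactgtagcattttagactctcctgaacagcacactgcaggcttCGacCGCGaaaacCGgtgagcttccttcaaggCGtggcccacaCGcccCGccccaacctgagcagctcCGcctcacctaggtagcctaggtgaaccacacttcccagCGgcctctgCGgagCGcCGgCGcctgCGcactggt
Ring1 promoter, GRCm38.p6 chr17:34024681-34024930, minus strand: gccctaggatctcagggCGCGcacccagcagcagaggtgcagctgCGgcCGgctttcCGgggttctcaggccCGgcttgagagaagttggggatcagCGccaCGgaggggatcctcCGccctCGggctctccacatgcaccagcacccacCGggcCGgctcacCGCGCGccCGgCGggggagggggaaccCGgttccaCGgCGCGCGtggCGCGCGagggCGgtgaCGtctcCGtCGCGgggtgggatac
The Suz12 stretch held 37 CpG sites, more than 97.8% of the 32851 promoters in the table, and the Scml2 stretch held 7, more than 53.7%. Ring1 had 30 CpG sites and Pcgf6 14. The other members had 12 (Eed), 14 (Ezh1), 20 (Rnf2), 21 (Bmi1) and 23 (Ezh2), against a median of 6 over all promoters, so each of the 9 members lay above that median. The annotated start of Rnf2 was not matched to a transcript sequence of the gene, unlike those of the other members. Suz12 with 37 CpG sites and Scml2 with 7 both rose, while Ring1 with 30 and Pcgf6 with 14 fell. A link of CpG number with direction was not tested. These libraries hold no methylation measurement of these sites. A search of both strands for CACGTG, the E-box letters, found a match in 1 member, Bmi1, starting 215 bases before the start, while 6.02% of all promoters held it. The E2F letters GGCGGGAA and the CRE letters TGACGTCA had matches in 0 of the 9 stretches, against 1.86% and 1.55% of all promoters.

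In the knockout, 5 of the 9 Polycomb genes rose, 2 fell and 2 were not called. The rises were in Scml2, Suz12, Bmi1, Ezh1 and Rnf2, the falls in Pcgf6 and Ring1, and Ezh2 and Eed were not called, where the calls of Rnf2, Ring1, Ezh2 and Eed changed with the scaling between libraries. Calls were made by limma on log2(RPKM + 1) at a Benjamini-Hochberg adjusted p under 0.05 over all genes tested, and on this scale the change of low genes is understated. Calls were common in these libraries. Of all genes tested 73.8% were called, 43.3% higher and 30.5% lower, so 7 called genes out of 9 is close to the background. The groups did not overlap for any of the 9 members, as for 89.9% of all genes tested. The median log2 fold change of the 9 members was 0.41, against 0.14 over all genes. By rank, Scml2 lay above 92.6% of all genes tested, Suz12 above 89.9%, Bmi1 above 80.3%, Ezh1 above 71.1% and Rnf2 above 64.3%. Ezh2 and Eed were near the middle, above 43.9% and 48.2%, and Ring1 and Pcgf6 were above 26.3% and 13.4%.

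**Figure D1:**
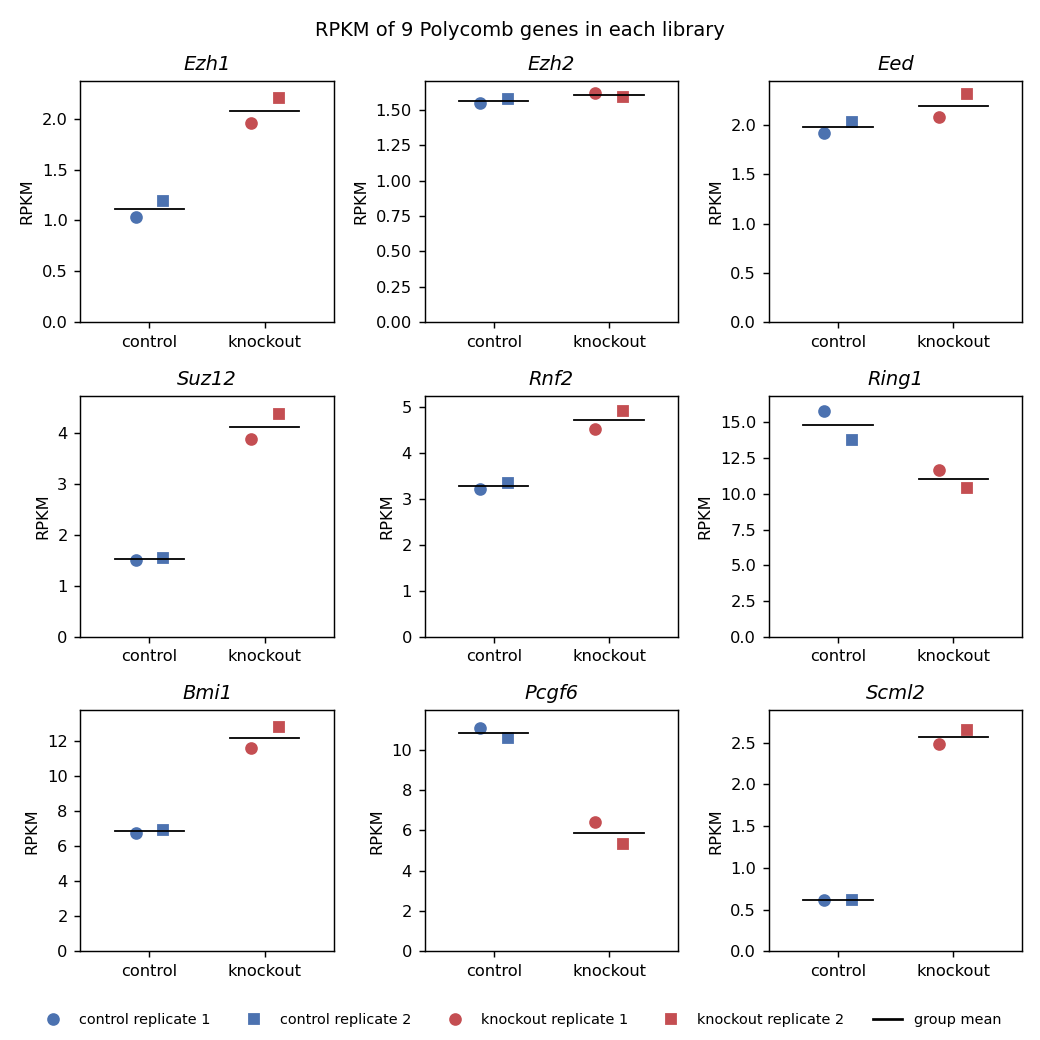
RPKM (vertical axis, from 0, own scale per gene) of each of the 9 genes in the 2 control and 2 knockout libraries, with a line at each group mean. Scml2 and Suz12 sit at 0.613 to 0.618 and 1.5 to 1.54 in the control and at 2.48 to 2.65 and 3.88 to 4.36 in the knockout, while the Ezh2 points span 1.55 to 1.62 over all 4 libraries.

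Among the PRC2 genes, Suz12 and Ezh1 were higher in the knockout, and Ezh2 and Eed were not called. Suz12, the scaffold subunit, measured 1.5 and 1.54 RPKM in the control libraries and 3.88 and 4.36 in the knockout libraries. Both knockout values lay above both control values, and the ratio of means was 2.71 (log2 fold change 1.02, SE 0.08, limma adjusted p = 0.0014). Ezh1, the catalytic subunit that is common in cells that no longer divide, measured 1.03 and 1.19 RPKM in the control and 1.96 and 2.2 in the knockout. Its groups did not overlap either, with a ratio of means of 1.88 (log2 fold change 0.55, SE 0.08, limma adjusted p = 0.0033).

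Ezh2, the catalytic subunit typical of dividing cells, measured 1.55 and 1.58 RPKM in the control libraries and 1.62 and 1.59 in the knockout libraries. The 4 values were close together, and the 95% interval of the log2 fold change ran from -0.16 to 0.20 around 0.02 (limma adjusted p = 0.81). Eed, which binds the methylated histone tail, measured 1.92 and 2.03 RPKM in the control and 2.08 and 2.31 in the knockout. Its 95% interval ran from -0.10 to 0.31 around 0.10 (limma adjusted p = 0.28). These calls depended on how libraries were scaled to each other. With an equal RPKM sum both were higher (Ezh2 0.28, adjusted p = 0.022, Eed 0.39, adjusted p = 0.011), while with quantile normalization Ezh2 was lower (-0.23, adjusted p = 0.028) and Eed turned negative without a call (-0.13, adjusted p = 0.16). The call of Ezh1 and Suz12 held under each scaling tried.

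The balance between the paralogous catalytic subunits was taken as a ratio within each library, on which a single scaling factor per library has no effect. Ezh2 RPKM was 1.5 and 1.33 times that of Ezh1 in the control libraries and 0.823 and 0.723 times in the knockout libraries. The log2 ratio was 0.50 ± 0.12 in the control and -0.37 ± 0.13 in the knockout (SD, n = 2), a shift of -0.88 toward Ezh1. The shift was larger than the spread between libraries, though it came to -0.53 with a pseudocount of 1 on both values, and its exact two-sided permutation p of 0.33 is the smallest that 2 against 2 libraries can give. The deposited RPKM divides by the whole gene span, and Ezh2 has a longer span for its exons than Ezh1, so the level of the genes was also compared after rescaling to exon length. That scale assumes that the counted reads were exonic. On it Ezh1 made up 14.3% and 15.8% of the sum of both genes in the control libraries and 23.3% and 25.7% in the knockout libraries.

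**Figure D2:**
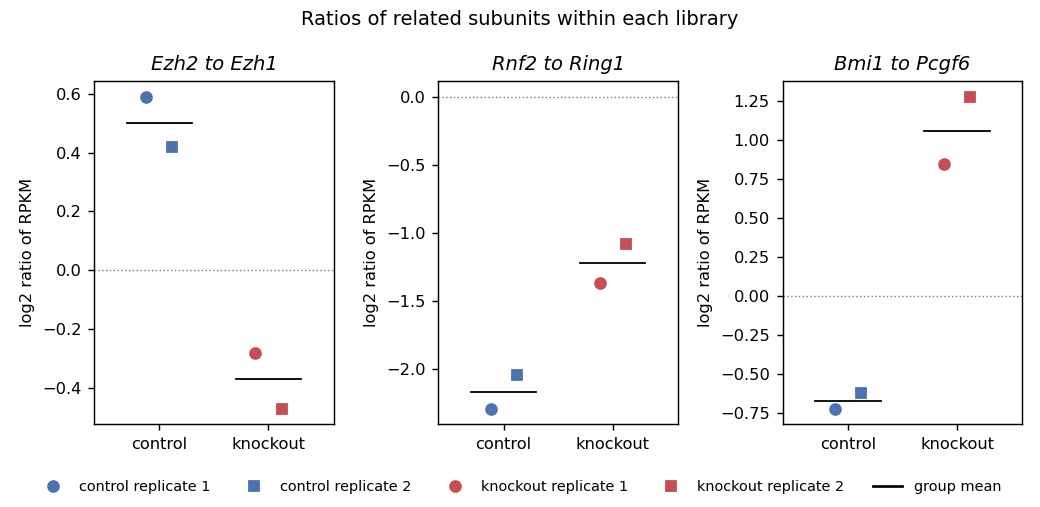
Log2 of the ratio of RPKM of 2 related subunits within each library (vertical axis), with a line at each group mean and a dotted line at equal RPKM. The Ezh2 to Ezh1 ratio falls from 0.59 and 0.42 in the control to -0.28 and -0.47 in the knockout, while Rnf2 to Ring1 and Bmi1 to Pcgf6 are higher in both knockout libraries.

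Among the PRC1 genes, Rnf2 and Bmi1 were higher and Ring1 and Pcgf6 lower in the knockout. Bmi1, the PCGF subunit of canonical PRC1 known for the upkeep of stem cells, measured 6.75 and 6.93 RPKM in the control libraries and 11.6 and 12.8 in the knockout libraries. The groups did not overlap, and the ratio of means was 1.78 (log2 fold change 0.75, SE 0.09, limma adjusted p = 0.0019). Pcgf6, the PCGF subunit of the variant complex with Mga and Max, measured 11.1 and 10.6 RPKM in the control and 6.41 and 5.31 in the knockout. Both knockout values were below both control values, 1.86-fold lower by the means (log2 fold change -0.80, SE 0.11, limma adjusted p = 0.0024). Bmi1 and Pcgf6 kept direction and call under each alternative tried.

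Rnf2, the main ubiquitin ligase of PRC1 in many cells, measured 3.23 and 3.35 RPKM in the control libraries and 4.52 and 4.92 in the knockout libraries. Its groups did not overlap, and the ratio of means was 1.43 (log2 fold change 0.41, SE 0.08, limma adjusted p = 0.007). The call ended with libraries centred on an equal median (0.21, adjusted p = 0.058) and without control replicate 1 (0.39, adjusted p = 0.064). Ring1, the paralogous ligase, measured 15.8 and 13.8 RPKM in the control and 11.7 and 10.4 in the knockout. The knockout values were lower in both libraries, 1.34-fold by the means (log2 fold change -0.39, SE 0.11, limma adjusted p = 0.026). The Ring1 call ended without the filter (adjusted p = 0.075), with an equal RPKM sum (0.98), with quantile normalization (0.23), without control replicate 1 (0.19) or 2 (0.062) and without knockout replicate 2 (0.068).

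Within libraries the related PRC1 subunits shifted against each other. Rnf2 RPKM was 0.204 and 0.243 times that of Ring1 in the control libraries and 0.388 and 0.472 times in the knockout libraries. Rescaled to exon length, Rnf2 was 1.01 and 1.2 times Ring1 in the control and 1.92 and 2.33 times in the knockout. This scale assumes that the counted reads were exonic. On it the pair was nearly level in control replicate 1, and Rnf2 was the higher in the other libraries. The log2 ratio of deposited RPKM was higher by 0.94, from -2.17 ± 0.18 to -1.22 ± 0.20 (SD, n = 2, exact permutation p = 0.33). Bmi1 RPKM was 0.608 and 0.651 times that of Pcgf6 in the control and 1.8 and 2.42 times in the knockout. Rescaled to exon length, this level ratio was 0.197 and 0.211 in the control and 0.584 and 0.784 in the knockout, so that Bmi1 remained below Pcgf6. The log2 ratio of deposited RPKM went from -0.67 ± 0.07 to 1.06 ± 0.30, a difference of 1.73 or 3.32-fold (SD, n = 2, exact permutation p = 0.33). Quantile normalization, which does not use a single factor per library, gave shifts of -0.86 for Ezh2 to Ezh1, 0.55 for Rnf2 to Ring1 and 1.80 for Bmi1 to Pcgf6. The groups did not overlap in any of the 3 ratios as deposited, and 0.33 is the smallest p that this design can give. How often ratios of other gene pairs separate the groups was not computed, while 89.9% of single genes tested did not overlap.

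Scml2, the germline member, is on the X chromosome and had the largest log2 fold change of the 9. It measured 0.613 and 0.618 RPKM in the control libraries and 2.48 and 2.65 in the knockout libraries. The groups were far apart compared with the spread within each, with a ratio of means of 4.17 (log2 fold change 1.14, SE 0.07, limma adjusted p = 0.0014). With control values under 1 RPKM, Scml2 met the filter by its knockout values alone. On the scale of log2(RPKM + 1) its change was near the middle of its chromosome, since 55.8% of the 265 X-linked genes tested had a lower log2 fold change. That scale understates changes of low genes, and with a pseudocount of 0.1 the log2 fold change of Scml2 was 1.90. The rank among X-linked genes was not computed with other pseudocounts. The X-linked median was 1.06, against 0.11 on the autosomes, and 94.7% of the X-linked genes were called higher. These shares lean toward rises, because other X-linked genes that are low in the control also entered only by their knockout values. With all 1059 X-linked symbols fitted, and no filter, 49.6% were called higher and 1.6% lower (median 0.12), against 26.8% and 13.3% of 23169 autosomal genes (median 0.01).

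**Figure D3:**
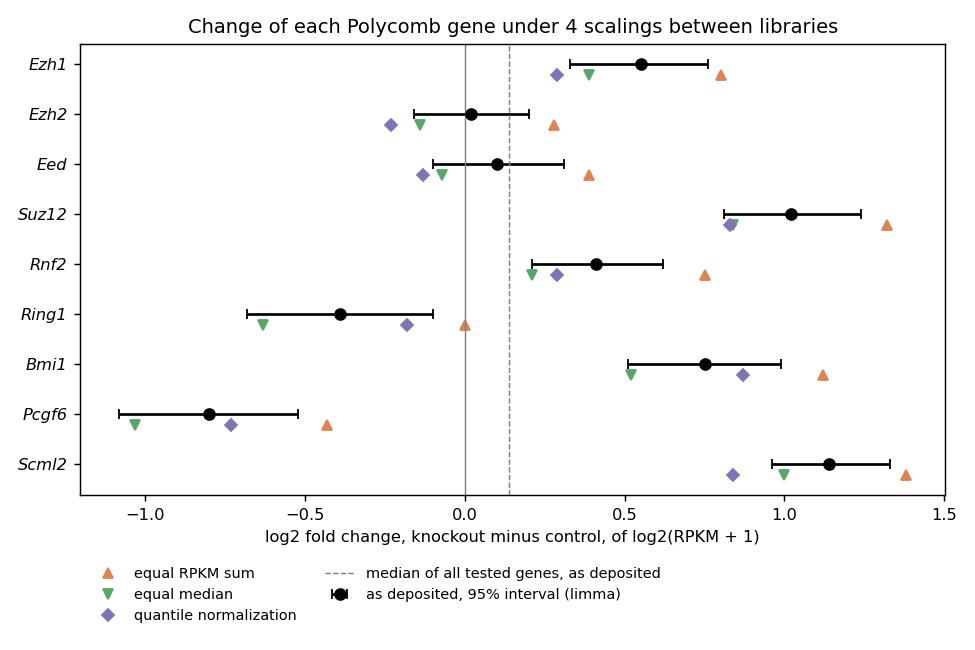
Log2 fold change of each gene, knockout minus control, of log2(RPKM + 1) (horizontal axis), as deposited with its 95% limma interval (black) and under 3 other scalings between libraries (coloured). Suz12, Bmi1, Scml2 and Ezh1 stay above 0 and Pcgf6 below 0 under all 4, Ezh2 and Eed change side, and Ring1 reaches 0 with an equal RPKM sum.

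Levels of different members can be compared only per length of transcript, and the rescaling to exon length assumes that the counted reads were exonic, which the sources used here do not state. On this rescaled RPKM, Pcgf6 was the highest member in the control at 87.3 ± 2.62 (SD, n = 2). Ezh2 followed at 36.4 ± 0.554, then Rnf2 at 31.1 ± 0.855 and Ring1 at 28.3 ± 2.68, whose nearest libraries lay at 30.5 and 30.2, and Eed at 25.1 ± 0.982, just under the lower Ring1 library. Scml2 (17.9 ± 0.0936) and Bmi1 (17.8 ± 0.324) overlapped, and Suz12 (14.3 ± 0.306) and Ezh1 (6.45 ± 0.647) were the lowest. In the knockout the order began with Scml2 at 74.7 ± 3.52. Pcgf6 (47.0 ± 6.26) and Rnf2 (44.6 ± 2.62) overlapped, as did Suz12 (38.7 ± 3.22) and Ezh2 (37.2 ± 0.444), followed by Bmi1 (31.7 ± 2.37), Eed (28.0 ± 2.10), Ring1 (21.1 ± 1.67) and Ezh1 (12.1 ± 0.963). In the control Suz12 was thus below its partners Ezh2 and Eed, and in the knockout it was level with Ezh2. The place of Scml2 depends most on the rescaling, because its span is 29.1 times its exon length, against 1.91 times for Ring1.

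**Figure D4:**
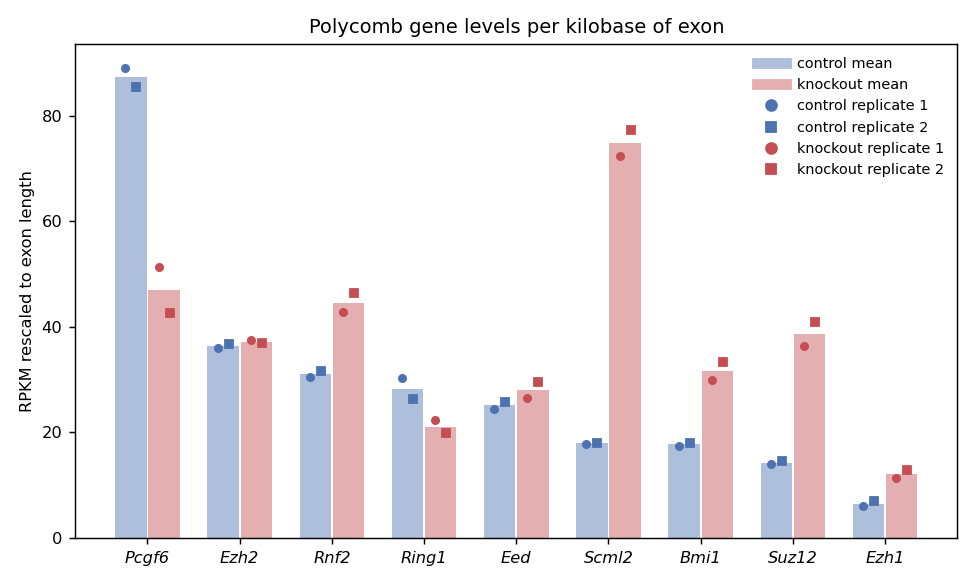
RPKM rescaled from gene span to exon length (vertical axis, from 0) for each gene, ordered by control mean, with bars for group means and points for the 2 libraries of each group. Pcgf6 leads in the control at 87.3 and Scml2 in the knockout at 74.7, and Ezh1 is lowest in both.

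The other Polycomb genes were taken from 4 lists of accessory subunits and opposing enzymes, 51 genes in all, of which 37 passed the filter. Of these, 22 rose, 3 fell and 12 were not called, with a median log2 fold change of 0.32 against 0.14 over all genes tested. The balance moved with the scaling, with 30 rises and 2 falls once RPKM sums were made equal, 18 and 9 on equal medians, and 16 and 7 after quantile normalization. A gene under 1 RPKM in both controls entered the test only if both knockout libraries reached that level, so the counts over tested genes lean toward rises. Without the filter 25 of the 51 were higher and 3 lower, where 27.8% and 12.8% of all 24388 genes were. These shares are not of like sets, since 37 of the 51 passed the filter and 9099 of all 24388 genes did. Of the 25 called genes, 17 kept direction and call under the 3 other scalings, 15 of them higher and 2 lower. The like share over all called genes was not computed, and several of the 15 entered the test by their knockout values alone. Among the genes named below, the calls of Jarid2, Aebp2, Max, E2f6 and Asxl1 ended with quantile normalization (adjusted p = 0.18, 0.052, 0.46, 0.18 and 0.42), those of Max and Asxl1 also with an equal median (0.1 and 0.2), and that of Pcgf1 with an equal RPKM sum (0.054).

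In the PRC2 accessory list, 5 of 8 tested members rose, Phf1 fell and 2 were not called, where 43.3% of all genes tested rose and 30.5% fell. AU022751, the older symbol of Ezhip, which codes for a germline inhibitor of PRC2, measured 1.41 and 2.77 RPKM in the control libraries and 10.2 and 12.2 in the knockout libraries. Both knockout values were well above the controls, 5.36-fold by the means (log2 fold change 2.01, limma adjusted p = 0.0017). Rbbp7, a histone-binding subunit that is X-linked like AU022751, rose 3.82-fold. E130012A19Rik, the older symbol of Epop, rose 3.35-fold from below 1 RPKM, and Jarid2 and Aebp2, which mark a separate PRC2 form, each rose 1.79-fold. E130012A19Rik, Jarid2 and Aebp2 were under 1 RPKM in both controls and entered the test by their knockout values alone. Phf1, a Polycomb-like protein that helps PRC2 bind chromatin, measured 57.1 and 55.3 RPKM in the control and 26.5 and 18.3 in the knockout, with a log2 fold change of -1.31 (limma adjusted p = 0.0027). Its relative Mtf2 was not called as deposited, with control values of 2.74 and 2.67 RPKM and knockout values of 2.51 and 2.34.

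In the canonical PRC1 list, 5 of 8 tested members rose, Cbx7 fell and 2 were not called, against the same 43.3% and 30.5% of all genes. Its members had a median log2 fold change of 1.07, against 0.14 over all genes. Cbx2, Pcgf2 and a gene that was not called entered the test by their knockout values alone. The chromobox genes, whose proteins bind the PRC2 mark, did not move alike. Cbx2 measured 0.909 and 0.937 RPKM in the control libraries and 3.34 and 3.75 in the knockout libraries, a 3.84-fold rise. Cbx6 and Cbx8 rose 3.54-fold and 4.22-fold. Cbx7 measured 5.97 and 6.03 RPKM in the control and 3.07 and 2.39 in the knockout, a log2 fold change of -0.91 (limma adjusted p = 0.0019). Pcgf2, the close relative of Bmi1, rose 4.34-fold from below 1 RPKM, while the polyhomeotic gene Phc1 was not called (log2 fold change 0.06, adjusted p = 0.52).

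In the variant PRC1 list, 9 of 14 tested members rose, Pcgf1 fell and 4 were not called, so 10 of 14 were called where 73.8% of all genes were. Among those that rose, Pcgf3, Rybp, E2f6 and Fbrsl1 were under 1 RPKM in both controls and entered the test by their knockout values alone. Mga, the DNA-binding partner of Pcgf6, measured 1.08 and 0.984 RPKM in the control libraries and 2.53 and 2.73 in the knockout libraries, 2.55-fold higher by the means. Its partners Max and E2f6 rose 1.43-fold and 2.19-fold as deposited, though both calls ended with quantile normalization. As deposited, these genes rose where Pcgf6 fell, and L3mbtl2 of the same complex was not called (log2 fold change -0.11, adjusted p = 0.30). Fbrsl1 rose 4.15-fold, Pcgf3 2.91-fold and Rybp, which stimulates the ligase in place of a chromobox protein, 2.23-fold. Pcgf1, the PCGF subunit of the complex with Kdm2b and Bcor, fell from 5.53 and 5.71 RPKM to 3.67 and 2.55 (log2 fold change -0.70, limma adjusted p = 0.0088).

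Among enzymes that remove the Polycomb marks and their partners, 3 of 7 tested genes rose and 4 were not called, a share of rises near the 43.3% of all genes. Kdm6b, a demethylase of the PRC2 mark, measured 1.86 and 1.8 RPKM in the control libraries and 5.15 and 6.63 in the knockout libraries, 3.22-fold higher. Mysm1, a deubiquitinase of histone H2A, rose 2.70-fold, and Asxl1, the partner of the deubiquitinase Bap1, 1.37-fold. Mysm1 was under 1 RPKM in both controls and entered the test by its knockout values alone. Bap1 itself was not called, with 15.4 and 15.7 RPKM in the control and 13.6 and 14.3 in the knockout.

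**Figure D5:**
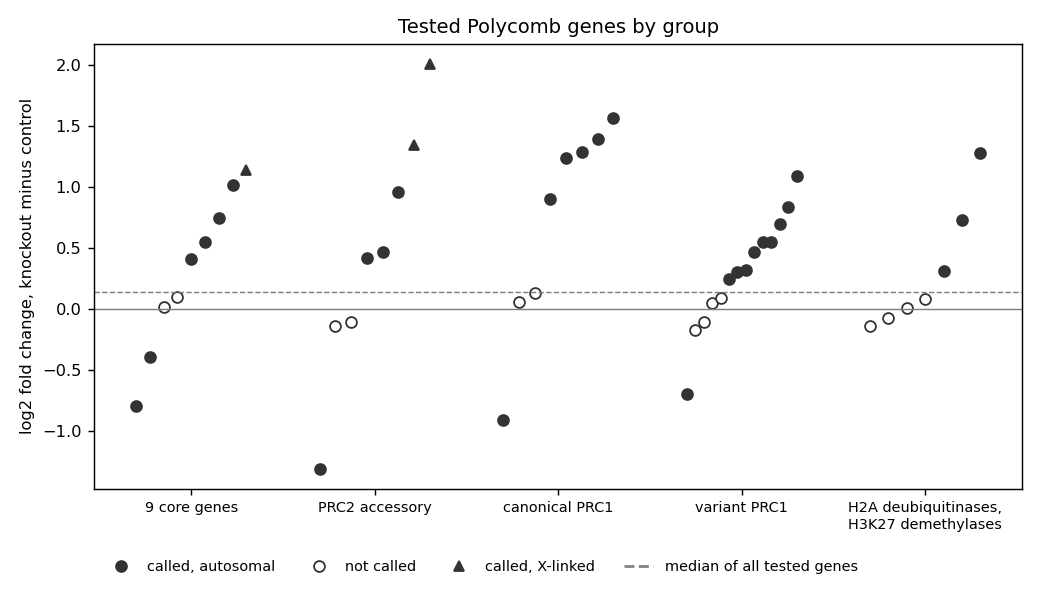
Log2 fold change, knockout minus control (vertical axis), of the 9 core genes and of the 37 other tested Polycomb genes by list, with filled symbols for called genes and triangles for X-linked genes. Each list except the enzymes that remove the marks holds called genes on both sides of 0.

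Of the 6 sex-linked genes in these 4 lists, 2 passed the filter (AU022751 and Rbbp7) and both rose. Of all 265 X-linked genes tested, 94.7% rose. Without the filter 5 of the 6 were higher and 0 lower, by limma at an adjusted p under 0.05. The shares over 1059 X-linked genes were then 49.6% higher and 1.6% lower. The remaining 4 were below 1 RPKM in all libraries, among them the X-linked demethylase gene Kdm6a, with 0.088 and 0.116 RPKM in the control and 0.53 and 0.681 in the knockout. The 35 autosomal genes tested split into 20 rises, 3 falls and 12 without a call, with a median log2 fold change of 0.31. Over all genes tested 43.3% rose and 30.5% fell. The tested counts lean toward rises, because genes low in the control entered only by their knockout values. Without the filter 20 of 45 autosomal list genes were higher and 3 lower, against 26.8% and 13.3% of 23169 autosomal genes. Here too the sets are unlike, since 35 of the 45 passed the filter and 8784 of the 23169 did.

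Markers of germ cell stage and of other cells moved in the same libraries, where 43.3% of all genes tested were higher and 30.5% lower. Several markers that rose were under 1 RPKM in both controls and entered by their knockout values alone, so counts of rises lean upward. Of 15 pachytene genes tested, 14 were lower and 1 higher, and the summed RPKM of the list was 2225 to 2244 in the control and 672 to 891 in the knockout. All 5 spermatid genes tested were lower. Of 11 meiotic entry genes 8 were higher, 1 lower and 2 not called (sums 46.8 to 47.2 in the control and 61.8 to 64.6 in the knockout). Of 5 spermatogonial genes tested 4 were higher and Id4, the most abundant, was lower (40.3 ± 1.86 and 23.1 ± 2.12 RPKM, SD, n = 2), so the list's sum was 47.5 to 52.1 in the control and 45.1 to 46.5 in the knockout. Of the 17 tested genes of replication and cell division, 12 were higher, 1 lower and 4 not called, with sums of 91.4 to 97.9 and 139 to 145. All 15 tested Sertoli cell genes were higher, with a summed RPKM of 135 to 160 in the control and 414 to 519 in the knockout, led by Aard (53.0 ± 4.62 and 152 ± 19.5) and Clu (28.9 ± 4.25 and 95.3 ± 13.5, SD, n = 2). Leydig cell genes were higher in 5 of 6 cases (sums 19.1 to 19.2 and 50.4 to 60.5), peritubular genes in 2 of 2 (4.88 and 10.6 to 12.3) and macrophage genes in 5 of 5 (5.1 to 6.46 and 12.5 to 16.0). The 6 endothelial genes were below 1 RPKM in all libraries, and dissociation and stress genes were higher in 12 of 12 cases (23.5 to 29.0 and 88.6 to 131). No marker of these somatic lists was at 0 in both libraries of a group. The part of these shifts in the values of the Polycomb genes was not tested.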

How the data were processed

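Poly(A) RNA of 2 control and 2 knockout libraries was read as 50-bp pairs, per the labels' protocols, from an NEBNext Ultra II library that does not mark strand. The authors deposited RPKM values, 1 column per library. The submitters' processing notes name Bowtie2 and mm9, and the sources used here give no counting program or annotation. Low values stepped by whole multiples of gene span (within 0.05 of a whole step for 45.7% to 49.5%, and by exon length 11.0% to 11.3%, where chance gives 10%), so RPKM was scaled by span, and the step gave the depth of each library. The labels do not tie replicates to separate animals, so p-values cover only the spread among these libraries, which may be technical.

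From 24444 rows, 27 with a date as symbol and 29 lower rows of a repeated symbol were left out. The 9099 genes that reached 1 RPKM in 2 or more libraries were tested by limma 3.58.1 (R 4.3.3) with a mean-variance trend on log2(RPKM + 1), two-sided, with a threshold of 0.05. The fit was tested on simulated data. Exon and span lengths came from GENCODE M21 and RefSeq GRCm38.p6, and promoter sequences from RefSeq, with 9 of 9 members matched. A RefSeq gene that is not a row of the table overlaps Ezh2, and none overlaps the other members.

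Members and lists were chosen with earlier results of these data known. Beside the members and Uhrf1, the text names up to 4 called genes per direction with the smallest p in each Polycomb list, the most abundant Hox genes, and the most abundant markers where a result turns on them. Mtf2, Aebp2, Cbx8, Phc1, Max, E2f6, L3mbtl2, Bap1 and Kdm6a were added after their values were seen, and a gene that the rule names is not reported here. The alternatives changed the pseudocount (0.1, 0.5), the filter (none, 5 RPKM), the scaling (3 ways), the trend, a block by replicate number, the handling of repeated symbols and, in turn, the libraries used.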

Additional observations from a re-analysis of the deposited data

How the results depend on the processing

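Of the 9 genes, Scml2, Suz12, Bmi1, Ezh1 and Pcgf6 kept direction and call under every alternative in which they were tested. The filter at 5 RPKM tested 3 members, with 1 higher and 2 lower, and gave 1080 genes higher and 1629 lower in all, with 5 other Polycomb genes higher. Without the filter 6790 genes were higher and 1 member was lower. With an equal RPKM sum 1698 genes and 1 member were lower, and 7 members higher. Ezh2 and Eed turned negative with an equal median (-0.14 and -0.07) and with quantile normalization (-0.23 and -0.13), and other Polycomb genes called lower then numbered 9 and 7, against 3. The cause of these differences was not tested, apart from the fewer genes that a stricter filter tests. The share of calls that were higher was 58.7% as deposited, 75.9% with an equal RPKM sum, 46.6% with an equal median and 50.9% with quantile normalization, with medians over the tested genes of 0.14, 0.44, -0.05 and 0.01 on the log2 scale.

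With each library left out, members called higher numbered 4 to 5 and lower 1 to 2, and genes called higher 3034 to 3949 and lower 2085 to 2902. The lost rise was that of Rnf2 without control replicate 1, and the lost fall that of Ring1 without control replicate 1, control replicate 2 or knockout replicate 2. Other Polycomb genes called higher then ranged from 17 to 21. The shift of the Ezh2 to Ezh1 ratio ranged from -0.97 to -0.78, that of Rnf2 to Ring1 from 0.80 to 1.08 and that of Bmi1 to Pcgf6 from 1.52 to 1.94. With a pseudocount of 1 in the ratio the Ezh2 to Ezh1 shift was -0.53, since a pseudocount shrinks ratios of low values. Quantile normalization, added after seeing the data, moved the Rnf2 to Ring1 shift to 0.55 and gave -0.86 and 1.80 for the other ratios. With the replicate block 5 members were higher and 2 lower, 3868 genes were higher and 2721 lower, and the 3 ratio shifts were -0.88, 0.94 and 1.73. Same-numbered libraries correlated by 0.11 across genes in their deviations, and the labels do not say that a number marks a shared animal or day. The shallowest value, Ring1 in knockout replicate 2, rested on about 195 reads or read pairs.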

Other observations

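Hox genes, transcription factors of body axis patterning and the best known targets of Polycomb silencing, were mostly at low RPKM in both groups. Of the 39 Hox genes, 33 were below 1 RPKM in all libraries, and 6 passed the filter. Of these 4 were lower, 1 was higher and 1 was not called, with a median log2 fold change of -0.77, where 30.5% of all genes tested were lower and 43.3% higher. Hoxa4, a Hox gene known for expression in male germ cells, measured 50.1 and 54.7 RPKM in the control libraries and 19.5 and 10.1 in the knockout libraries (log2 fold change -1.82, limma adjusted p = 0.0039). Hoxd8 measured 13.1 and 13.2 RPKM in the control and 8.33 and 6.87 in the knockout, and Hoxa3 2.61 and 2.8 against 1.08 and 0.625. Hoxd9 was the gene that rose, from 0.847 and 0.563 to 3.18 and 3.85 RPKM (log2 fold change 1.41, limma adjusted p = 0.0014). With both controls under 1 RPKM, Hoxd9 met the filter by its knockout values alone. In the same way, 1 of the 4 that fell met it by its control values alone. Without the filter 5 of the 39 were higher and 4 lower, where 27.8% and 12.8% of all genes were. Hoxa2, Hoxa6, Hoxa11, Hoxa13, Hoxc12, Hoxd11 and Hoxd12 were listed at 0 in all 4 libraries. The summed RPKM of the list was 71.5 to 76.4 in the control and 27.2 to 39.4 in the knockout, with Hoxa4 the highest gene in each library. All 15 tested Sertoli cell genes were higher and 14 of 15 pachytene genes lower in the same libraries, and the part of these shifts in the Hox values was not tested.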
